A study of Sus scrofa domesticus with 4 samples.

Results

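Complement genes other than those of the C1q complex were followed in cultured slices of pig myometrium, the muscle layer of the uterus, with and without orexin B. The 9 genes listed were CFB, CFD, C3, C2, C1R, C1S, C5, CD46 and CD59. They were chosen by the measured ratios of CFB, which were below 0 on all 4 arrays, so the values of CFB are a description with no test, and the other genes were listed to be set beside it. Their probes were found by RefSeq accession in the gene table of the Sscrofa11.1 assembly. This gave 14 of 43603 non-control probes, for 7 of the 9 genes and of 2971 named genes with a probe in all, and 13 of the 14 probes were bright enough to test. No probe was matched to CFD or C1R, which were not analysed here. The files give no genome build and no probe sequences, so neither coordinates nor sequences are shown.

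The slices came from 4 gilts aged 7 to 8 months, of the cross Large White x Polish Landrace, on days 15 to 16 of gestation, around the time of implantation. After 2 h of preincubation they were kept for 24 h with 10 nM orexin B, a hypothalamic peptide that binds orexin receptors, or in the same culture without it. RNA of both groups was hybridised together on 2-colour arrays numbered 1 to 4. The red dye Cy5 marked the orexin B RNA of arrays 1 and 3, and the green dye Cy3 that of arrays 2 and 4. All ratios are log2 ratios of orexin B over untreated. Cultures were made in duplicate in 4 experiments. The labels do not say whether each array holds 1 gilt, so errors and p-values measure only the spread between these 4 arrays.

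Complement is a set of blood and tissue proteins that mark targets for removal. In the classical pathway C1q activates the proteases C1R and C1S, which cut C4 and C2 to form a convertase, an enzyme that cleaves C3. In the alternative pathway factor D, encoded by CFD, cuts factor B, encoded by CFB, once factor B has bound to activated C3, and the product is a convertase that amplifies the deposit. C5 starts the terminal pathway, which ends in a membrane pore. CD46 and CD59 protect the host's own cells, CD46 as a cofactor for the inactivation of deposited C3b and C4b, CD59 by blocking the pore. Liver makes most plasma complement, and epithelia and macrophages make several components locally.

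Slices hold several cell types, and fewer cells of a type cannot be told apart from less RNA per cell. Between 48.7% and 54.3% of probes were well above background in the orexin B channel of an array, and between 37.6% and 58.2% in the untreated channel. The number of arrays limits the precision. Of 11 smooth muscle markers 7 were measured, among them ACTA2, DES and CNN1, and all 7 were well above background with orexin B on 4 of 4 arrays. Their summed normalized intensity ran from 478749 to 915152 in the untreated channels and from 262694 to 723136 in the orexin B channels. Of 8 epithelial markers 2 were measured, with sums from 686 to 2827 and from 445 to 2155 in the same order. Of 6 hepatocyte markers only APOA1 was measured, and ALB and TTR were not.

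CFB, the protease component of the alternative pathway convertase, was lower with orexin B on every array. Its log2 ratios were -0.99, -0.26, -0.77 and -1.14 on arrays 1 to 4. Arrays 1, 3 and 4 lay close together and array 2 was nearest to 0. The mean was -0.79 with a moderated standard error of 0.16 (n = 4), or 1.73-fold lower. This is the pattern for which the gene was chosen. Of all 19879 tested probes, 7.08% were below 0 on all 4 arrays, 45.9% had a mean below 0, and 3.58% were both below 0 on all 4 arrays and at least 1.2-fold lower. Across the array, limma's moderated test called 0 of 19879 probes (0%) after adjustment at 0.05, higher or lower, and the smallest adjusted p was 0.596. Before adjustment 1534 probes lay under 0.05, or 7.72%.

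The level of CFB is known from its single probe, which was well above background in both channels on all 4 arrays. In untreated slices its normalized intensity was 3600, 1625, 4539 and 1957 on arrays 1 to 4, and with orexin B it was 1818, 1355, 2668 and 887. The groups overlapped when arrays were pooled, because arrays 1 and 3 were brighter than arrays 2 and 4 in both channels, and the difference appeared within each array. On arrays 1, 3 and 4 CFB lay among the lowest probes, with 0.617%, 1.01% and 1.22% of tested probes below it. On array 2 this share was 24.7%.

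**Figure D1:**
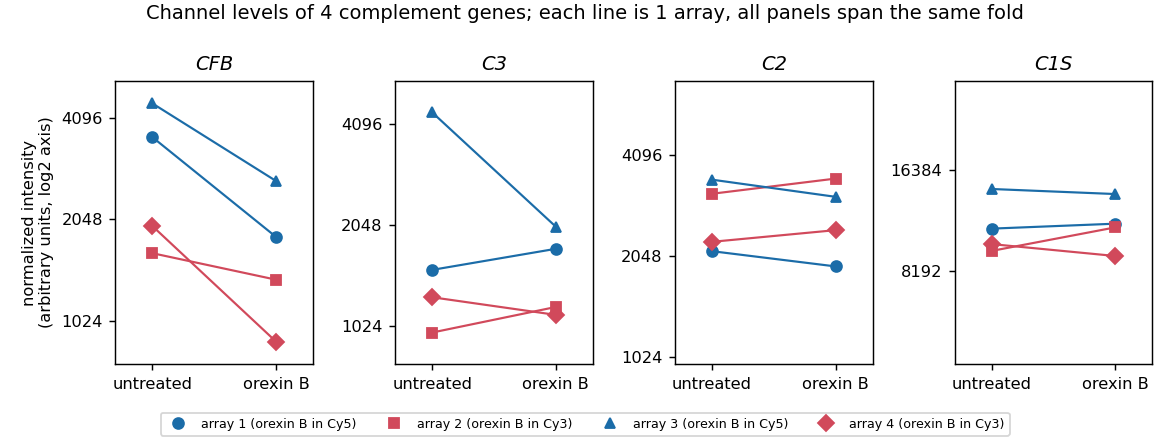
Normalized intensity (arbitrary units, log2 axis, equal span in every panel) of CFB, C3, C2 and C1S in untreated and orexin B channels, 1 line per array, with colour for the dye of the orexin B RNA. All 4 CFB lines fall, with array 2 the flattest, whereas after loess the C3 line falls steeply on array 3 only and the lines of C2 and C1S stay nearly level.

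The size of the CFB difference on a single array depended on how the dyes were balanced. The spot signals before correction were 1406.5 against 3133.5 on array 1, 1187 against 1962 on array 2, 3835.5 against 3785 on array 3 and 842 against 1795 on array 4, orexin B first. On array 3 the signals were thus nearly equal before the loess step, which removes a difference between dyes that varies with brightness. With median centring in place of loess the ratios were -0.22, -1.08, -0.29 and -1.54, with a mean of -0.78. The larger differences then fell on arrays 2 and 4, where orexin B RNA carried Cy3, in place of arrays 1, 3 and 4. With the scanner software's processed signals the ratios were -1.10, -0.36, -0.76 and -1.47. CFB was below 0 on 4 of 4 arrays under each of these settings.

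**Figure D2:**
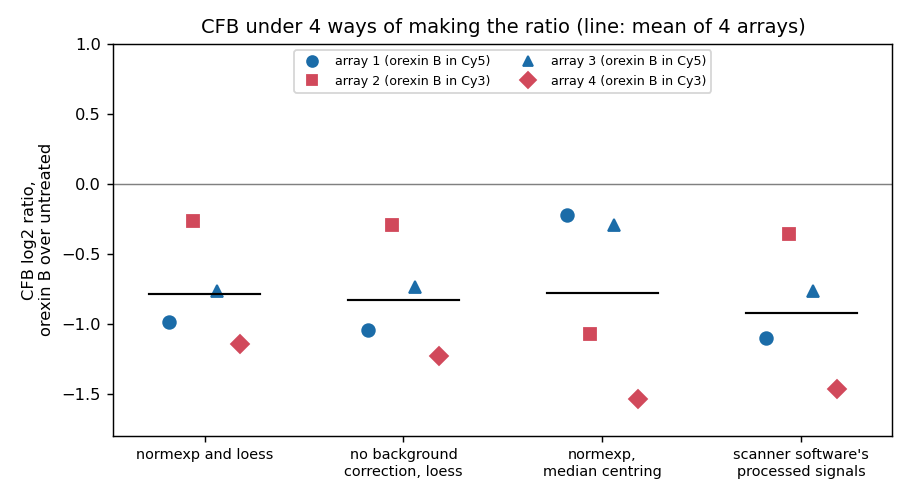
Log2 ratio of CFB, orexin B over untreated, on 4 arrays under 4 ways of making the ratio, with the mean as a line and colour for the dye of the orexin B RNA. All points lie below 0, the means run from -0.92 to -0.78, and median centring separates the arrays by dye.

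C3, the component that both convertases cleave, was measured by 5 probes, and after loess it was low with orexin B on array 3. Its brightest probe had ratios of 0.21, 0.25, -1.13 and -0.17 on arrays 1 to 4, a mean of -0.21 ± 0.23 (moderated standard error, n = 4; limma adjusted p = 0.854; 95% interval -0.76 to 0.34). On array 3 all 5 probes were between -1.13 and -0.71, and on the other arrays they ran from -0.17 to 0.30. The probes of C3 thus followed one another: their SD within an array averaged 0.11, and the SD of their array means was 0.50. Without replicate 3 the mean of the brightest probe was 0.096. As for CFB, the pattern over arrays depended on the balance of the dyes. With median centring in place of loess the brightest C3 probe had 0.91, -0.45, -0.67 and -0.56, low on arrays 2, 3 and 4 and high on array 1.

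The array 3 difference in C3 came with a high untreated level. The untreated intensities of the brightest C3 probe were 1501, 977, 4418 and 1244, and those with orexin B were 1734, 1164, 2019 and 1102. The 2 measured epithelial markers were low with C3 on array 3, though not on array 4. The neutrophil marker S100A8 was also low on array 3, at -2.01, and was at 0.165, 2.33 and 0.96 on arrays 1, 2 and 4. S100A12, the other measured neutrophil marker, had -0.094, 0.68, -0.11 and 0.60 on arrays 1 to 4. EPCAM, an epithelial adhesion molecule, had ratios of 0.24, -0.26, -2.69 and 1.11 on arrays 1 to 4, and KRT8, a keratin, had 0.43, -0.65, -1.49 and 0.67. The untreated intensity of EPCAM was 1231 on array 3 against 191.0 with orexin B. CFB was at -0.99 and -1.14 on arrays 1 and 4, where both epithelial markers were above 0. It was at -0.26 and -0.77 on arrays 2 and 3, where both were below 0. With median centring in place of loess CFB was at -0.22 on array 1. The part of epithelial RNA in the C3 and CFB ratios was not tested.

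**Figure D3:**
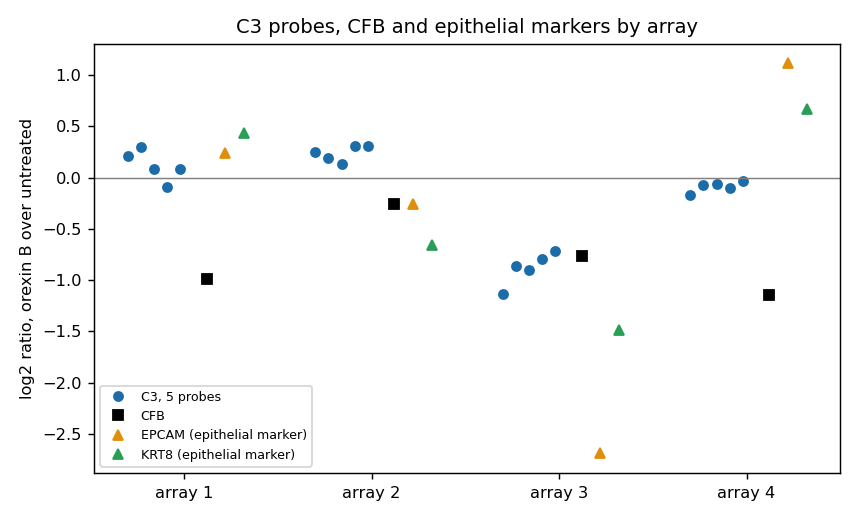
Log2 ratios, orexin B over untreated, of the 5 C3 probes, CFB and the epithelial markers EPCAM and KRT8 on each of the 4 arrays. The C3 probes cluster tightly within each array and are low on array 3, as are EPCAM and KRT8. CFB is below 0 on all 4 arrays.

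The measured proteases of the classical pathway, C2 and C1S, had means near 0 on their brighter probes. C2, which forms the catalytic part of the classical convertase and is homologous to factor B, lies directly beside CFB in the gene order of the table. Its brighter probe had ratios of -0.15, 0.15, -0.17 and 0.12, a mean of -0.014 ± 0.12 (limma adjusted p = 0.987; 95% interval -0.30 to 0.27). The second C2 probe, well above background on 3 of 4 arrays in the untreated channel, had a mean of 0.051 ± 0.12. Arrays 1 and 3 were below 0 and arrays 2 and 4 above 0 for the brighter probe, which is a split by dye orientation.

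C1S, the protease that cuts C4 and C2, had ratios of 0.049, 0.23, -0.050 and -0.12 on its brighter probe. The mean was 0.029 ± 0.12 (limma adjusted p = 0.966; 95% interval -0.25 to 0.31). Its untreated intensities were 10985, 9430, 14416 and 9877, and those with orexin B were 11364, 11080, 13925 and 9104, so that both groups overlapped. The second C1S probe had ratios of -0.16, 0.17, 0.44 and 0.19 and a mean of 0.16 ± 0.13. The probes differed most on array 3, where they lay on opposite sides of 0.

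**Figure D4:**
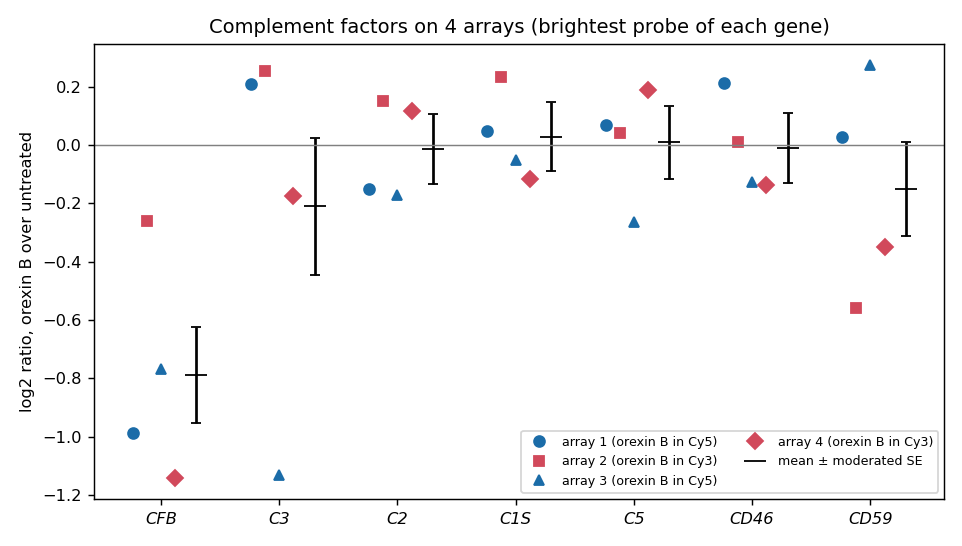
Log2 ratios, orexin B over untreated, of the 7 measured genes on the 4 arrays (brightest probe of each), with mean and moderated standard error in black and colour for the dye of the orexin B RNA. CFB is the gene with 4 points below 0, C3 has its low point on array 3, and CD59 separates by colour.

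C5 and CD46 were close to background. The tested C5 probe was well above background on 4 arrays with orexin B and on 2 without, with ratios of 0.068, 0.040, -0.26 and 0.19 and a mean of 0.0088 ± 0.12 (limma adjusted p = 0.993). The other C5 probe, above background on 3 arrays with orexin B and 1 without, was not tested. With the scanner software's processed signals the tested probe had a mean of 0.53 (limma adjusted p = 0.628). CD46 was above background on 4 arrays with orexin B and 3 without. Its ratios were 0.21, 0.010, -0.13 and -0.14, with a mean of -0.011 ± 0.12 (limma adjusted p = 0.991; 95% interval -0.29 to 0.27).

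CD59, the inhibitor of the pore, was well above background on 3 arrays with orexin B and 4 without, and had ratios of 0.027, -0.56, 0.28 and -0.35 on arrays 1 to 4. It was above or near 0 where orexin B RNA carried Cy5 and below 0 where it carried Cy3. Its mean was -0.15 ± 0.16 (limma adjusted p = 0.845; 95% interval -0.53 to 0.23). The mean moved to -0.38 with the processed signals, -0.015 without replicate 2 and -0.29 without replicate 3. With dye orientation as a further term, the difference between orientations was 0.61 ± 0.23 for CD59 (limma adjusted p = 0.368). For the 6 other genes this term ran from -0.50 for C3 to 0.11 for CD46, and for CFB it was -0.17 ± 0.33. For this term 0 of 19879 probes passed an adjusted p of 0.05 in limma (0%), 2494 had an unadjusted p under 0.05 (12.5%), and among the 7 genes CD59 was the 1 below that limit.

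Set against CFB within each array, the other 6 genes lay higher in most cases. C2 minus CFB was 0.84, 0.41, 0.60 and 1.26 on arrays 1 to 4, a mean of 0.78 with an SD of 0.37. C1S minus CFB was 1.03, 0.49, 0.72 and 1.02, a mean of 0.82 with an SD of 0.26. C2, C1S, C5 and CD46 were higher than CFB on 4 of 4 arrays. C3 was higher on 3 of 4, being 0.36 lower on array 3 (-0.36), and CD59 was higher on 3 of 4, being lower on array 2 (-0.30). These differences use the values that chose CFB and were not tested. In order of their means the genes ran CFB, C3, CD59, C2, CD46, C5 and C1S. The 6 after CFB had means from -0.21 to 0.029 with standard errors of 0.12 to 0.23. Among these 6 the 95% intervals of neighbours in the order overlapped. None of the 6 passed limma's test over all probes, 0 had an unadjusted p under 0.05, and none had 4 arrays of the same sign, a property of 16.0% of tested probes. Their median was -0.012, beside 0.018 over all tested probes.

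Of 52 complement genes on a wider list, which includes the 9, 20 were measured, 12 with a mean above 0 and 8 below, CFB among them by choice, where 54.1% and 45.9% of all tested probes were, and the median was 0.034. None passed limma's test over all probes. Leaving out CFB, 6 were higher and 1 lower at an unadjusted p under 0.05, where 4.31% and 3.41% of all tested probes were. The 6 higher were the C1q chains C1QA, C1QB and C1QC, the macrophage receptor VSIG4, the C5a receptor C5AR1 and the inhibitor C4BPA. Of these, C1QC was well above background on 4 arrays with orexin B and on 3 without. It was thus tested only through the channel in which it was higher. The 1 lower was FCN2, a lectin pathway recognition protein (ficolin). FCN2 had ratios of -0.16, -0.21, -0.45 and -0.72 and a mean of -0.39 ± 0.14 (limma adjusted p = 0.596). Its second probe, well above background on 4 arrays with orexin B and on 2 without, had 4 arrays below 0 and a mean of -0.084 ± 0.11. Besides CFB, which was chosen for it, FCN2 was the 1 measured gene of the list with 4 arrays below 0. Of all tested probes, 7.08% had that sign pattern, and 3.58% had it and were at least 1.2-fold lower. With median centring the unadjusted p in limma of FCN2, C1QB and C5AR1 was above 0.05, and that of FCN2 was above it also with the processed signals and without replicate 3 or 4.

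Genes of the list that were above 0 on all 4 arrays were C5AR1 and C1QB, as were 8.92% of all tested probes, and both were at least 1.2-fold higher, as were 4.54% with that sign pattern. C5AR1, the receptor for the fragment C5a, had ratios of 1.14, 0.28, 1.00 and 0.40 and a mean of 0.70 ± 0.18 (limma adjusted p = 0.596). The other C5AR1 probe, well above background on 0 arrays with orexin B and 1 without, was not tested. C1QB, a chain of C1q, had 0.80, 0.23, 1.82 and 1.08 and a mean of 0.98 ± 0.24 (limma adjusted p = 0.596). Both are made by macrophages, of whose 11 markers 6 were measured, with a list median of 0.53 and array medians of 0.36, 0.18, 0.79 and 0.50. Their summed intensity ran from 5633 to 10243 with orexin B and from 3614 to 6669 without. On array 3, where both C1QB and the macrophage median were highest, CFB was at -0.77 after loess and at -0.29 with median centring. The part of macrophage RNA in the ratios of C5AR1, C1QB and CFB was not tested.

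**Figure D5:**
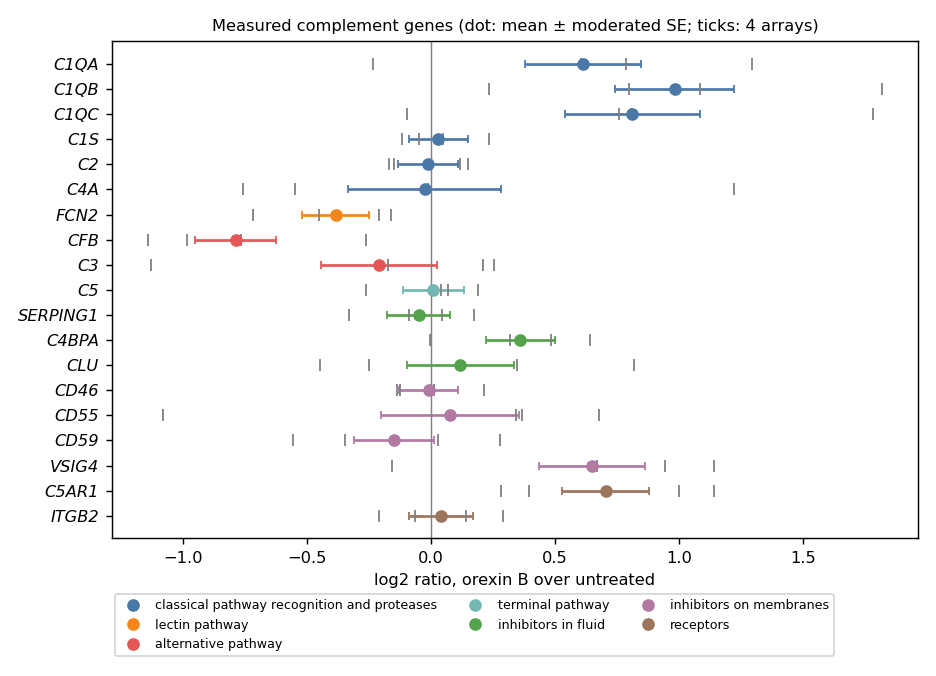
Mean log2 ratio, orexin B over untreated, with moderated standard error for 19 of the 20 measured complement genes, coloured by role, with a tick for each of the 4 arrays. CFB and FCN2 have 4 ticks below 0, and C1QB and C5AR1 have 4 above 0.

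By role, the wider list was unevenly measured. Of 7 terminal pathway genes, C5 alone was tested. The pore components C6, C7, C8A, C8B, C8G and C9 had probes, and none was tested. Of 9 inhibitors in fluid 4 were measured, 3 with a mean above 0. C4BPA, a cofactor that restrains the classical convertase, had ratios of 0.64, 0.32, 0.48 and -0.0038 and a mean of 0.36 ± 0.14 (limma adjusted p = 0.624). All 4 inhibitors on membranes were measured, with a median of 0.032.

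The 5 genes whose ratios on the 4 arrays were most like those of CFB were not complement genes. Likeness was the root mean square difference over the 4 arrays among 1936 named genes. The closest were SETD3, a histidine methyltransferase of actin (0.389), BTG2, an antiproliferative gene (0.405), ADD3, a protein of the membrane skeleton (0.425), ATP9A, a lipid flippase (0.429), and DTNBP1, dysbindin (0.441). SETD3 had ratios of -0.72, -0.43, -0.16 and -0.76. The 6 genes listed beside CFB were at 0.831 for C3 to 0.899 for C5, at ranks 471 to 771. The ranking uses the 4 ratios for which CFB was chosen and was not tested. The distances of the 6 genes largely restate that their means lay near 0, from -0.21 to 0.029.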

How the data were processed

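RNA of orexin B and untreated slices was compared on 4 2-colour Agilent arrays. The deposited scanner files hold median spot and background intensity values and dye-normalized processed intensity values, which per the file headers come from version 10.7.3.1 of Agilent Feature Extraction. The deposited series table holds log2 ratios, of which 100% matched the processed signals within 0.01 as orexin B over untreated. Its column medians were -0.27, -0.082, -0.20 and -0.094.

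With limma 3.58.1, run in R 4.3.3, signals were corrected by normexp (offset 50) and loess. Control spots had weight 0, and 31 to 138 marked outlier spots per array were left out. The dye fields of the labels gave each ratio's direction, though the protocol text names a single orientation. Channel levels were then scaled between arrays with Aquantile. A probe was tested if well above background on all 4 arrays in either channel, and unmarked on at least 3. An intercept model was fitted with lmFit and eBayes with Benjamini-Hochberg adjustment across the 19879 probes, and was checked on simulated ratios. Accessions matched the gene table for 6700 probes, 6599 with a symbol. A gene is represented by its brightest tested probe. The values of 1 listed complement gene are not reported here. No column was unmapped.

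The genes, lists and tests were chosen with earlier results of these data known. Named were the 9 genes, listed complement genes with 4 arrays of the same sign and at least 1.2-fold change, and the 5 genes closest to CFB; C1QA, C1QC, VSIG4, C4BPA, C4A, CD55, other list members and markers were named after their values were seen. The other marker lists had medians of 0.32 for neutrophil (2 measured), 0.18 for T and NK cell (3), -0.41 for fibroblast (4), 0.31 for endothelium (4), 0.073 for adipocyte (2), -0.49 for smooth muscle (7) and -0.33 for epithelium (2). On arrays 1 to 4 the smooth muscle medians were -0.0059, -1.15, 0.19 and -1.24, and the fibroblast medians were -0.016, -0.72, -0.0016 and -0.77. Both medians were thus low only on arrays 2 and 4, where orexin B RNA carried Cy3. Below 0 on all 4 arrays were 0 of the 7 smooth muscle markers and 1 of the 4 fibroblast markers. The latter was DCN, with ratios of -0.59, -0.42, -0.12 and -0.58, at rank 10 of 1936 genes in likeness to CFB. The part of fibroblast RNA in the CFB ratios was not tested. The neutrophil and epithelial medians had arrays on both sides of 0. Figures used Python 3.11.15 and matplotlib 3.10.9.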

Additional observations from a re-analysis of the deposited data

Results flagged for a closer look

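Dixon's test for a lone outlying array was run on 36 sets of 4 values, the ratios of each complement probe and named gene and the channel levels of the 7 genes. It passed its 95% limit in 0 sets, where chance gives 1.8. The nearest was a C3 probe with a ratio of -0.90 on array 3 and from -0.058 to 0.13 on the others, a gap of 0.816 of its range.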

How the results depend on the processing

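No setting brought a probe past an adjusted p of 0.05 in limma. The unadjusted count of 1534 became 177 with median centring (172 higher and 5 lower, against 856 and 678), 2302 without a filter on dim probes, 2382 with a dye term, 494 with the channels as separate samples and no replicate block, 726 without replicate 4, and 1195 with an ordinary one-sample test. CFB, which was chosen for being below 0 on all 4 arrays, kept a mean below 0 in all 15 alternatives. Many of these could not change that. The filters, the dye term, the channels without a replicate block and the average over its single probe left the mean at -0.79 by construction. The series table repeated the processed signals. With every array below 0, leaving out 1 replicate could not bring the mean above 0. Without 1 replicate CFB ran from -0.96 to -0.67. Within the slide that holds arrays 2, 3 and 4, the same set as without replicate 1, it was -0.72. As Cy5 over Cy3 without turning CFB was -0.087, since that setting gives arrays 2 and 4 the opposite sign. The single orientation of the protocol text would make this the orexin B ratio, whereas the series table follows the dye fields. CD59 had 0.30 without turning. C3 was 0.096 without replicate 3 and between -0.37 and -0.15 in the other alternatives. C5 was 0.53 with the processed signals and with the series table; the cause was not tested. The remaining genes moved by less than their SD between arrays, and none of the 6 passed under any setting. C5, CD46 and CD59 were left out by the strict filter. C1QB and C5AR1 stayed above 0 throughout, at adjusted p of at least 0.195 in limma. Both were named for being above 0 on all 4 arrays. As for CFB, leaving out 1 replicate could thus not change the sign of their means. The filters, the dye term and the channels without a replicate block left these means as they were by construction. FCN2 was 0.078 without turning.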

Other observations

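Among complement genes not described above, C4A and CD55 had ratios on both sides of 0. C4A, which encodes the component cut by C1S, had ratios of -0.015, 1.22, -0.76 and -0.55 on arrays 1 to 4, and its second tested probe had 0.030, 1.12, -0.47 and -0.53, so both probes were high on array 2 alone. The mean of the brighter probe was -0.026 ± 0.31. Probes of C4 genes may also bind near-identical copies. CD55, which speeds the decay of convertases, had ratios of 0.68, 0.37, 0.34 and -1.08 on its brighter probe. Its second tested probe had -0.18, 0.80, 0.35 and -0.41, so the probes lay on opposite sides of 0 on array 1.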
